A study of Mus musculus with 6 samples.

Results

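Coagulation and fibrinolysis genes encode the proteins that form a fibrin clot, restrain its growth and dissolve it again. From a list of 39 such genes, those measured by a probe set that carries exactly 1 gene symbol were taken, which gave 36 of the 22180 genes tested on the arrays. Where a gene has several such probe sets, the one with the highest mean over the 6 arrays is used, and no gene here had more than 1. The 3 listed genes without such a probe set were Klkb1, Serpine2 and Cpb2, which were not analysed here.

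The arrays hold liver RNA of male C57BL/6N mice aged 2 months. The knockout group, 3 arrays, came from cGK1-KO mice, which lack cGMP-dependent protein kinase 1 (encoded by Prkg1) and in which, per the series description, the kinase is restored in smooth muscle. The control group, 3 arrays, is called wild type in the sample labels. The promoter of the rescue, the deleted exon and whether the controls carry any transgene are not given in the sources used here, no treatment is named for either group, and nothing states that replicates are different animals, so the spread between arrays may be technical in part. The question put to these genes is how their liver transcript levels differ between mice without the kinase outside smooth muscle and mice that have it.

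Blood clotting runs as a cascade in which inactive proteases, most of them made by hepatocytes, activate each other until thrombin cleaves fibrinogen into fibrin. Cofactors speed these steps, serpins and the protein C system limit them, and plasmin, released from plasminogen, degrades the clot. A few of the genes are made mainly by other liver cells, such as factor VIII by sinusoidal endothelial cells. Fibrinogen is also a classical acute phase protein, whose transcription in hepatocytes is raised by interleukin-6 through STAT3 and C/EBP factors, while HNF1 is a liver-enriched factor that binds many hepatocyte promoters.

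Values are log2 RMA expression, so that a difference of 1 is a doubling, and differences are knockout minus control with the standard error of the linear model (limma) and n = 3 arrays per group throughout. The array medians lay between 3.11 and 3.16, and the median of all deposited values, 3.14, is used below as the limit under which a probe set is called dim. Prkg1 itself lay at 3.31, 3.04 and 3.22 in knockout replicates 1 to 3 and at 3.32, 2.97 and 2.95 in the control arrays (difference 0.11, SE 0.15, limma adjusted p = 0.837), close to that limit, so it does not check the genotype. Knockout replicate 3 correlated no better with the other knockout arrays (0.978 and 0.979 across genes) than with the controls (0.981 to 0.983). Of 14 hepatocyte markers 12 were measured, all above the dim limit, with albumin (Alb) between 13.30 and 13.44 on all 6 arrays. In the whole table of 22180 genes limma called 0 at an adjusted p under 0.05, and 2334 had an unadjusted p under 0.05 (10.5%).

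The pattern the genes share is that the fibrinogen chains, kininogens, plasminogen and some of their partners lay modestly higher in the knockout, while antithrombin, heparin cofactor II, protein C and factors V, IX, XI and XII lay close to the controls. No member passed the threshold: 0 of 36 had a limma adjusted p under 0.05, where the background over all genes was 0.0%, and the smallest was 0.305. At an unadjusted p under 0.05 there were 10 members higher in the knockout, namely Fga, Fgb, Fgg, Kng1, Kng2, Hrg, Plg, Serpinf2, Serpina10 and F7, against a background of 5.06% of all genes, and 0 lower, against a background of 5.46%. Those 10 are 27.8% of the members. In 13 members all 3 knockout arrays lay above all 3 controls (background 7.61%), and in 0 members all lay below (background 9.14%). The median difference of the 36 members was 0.16, against 0.00 over all genes tested, and 28 were positive (background 50.2%). Because whole liver was measured, a change in the number of cells of a type and a change in RNA per cell cannot be told apart.

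**Figure D1:**
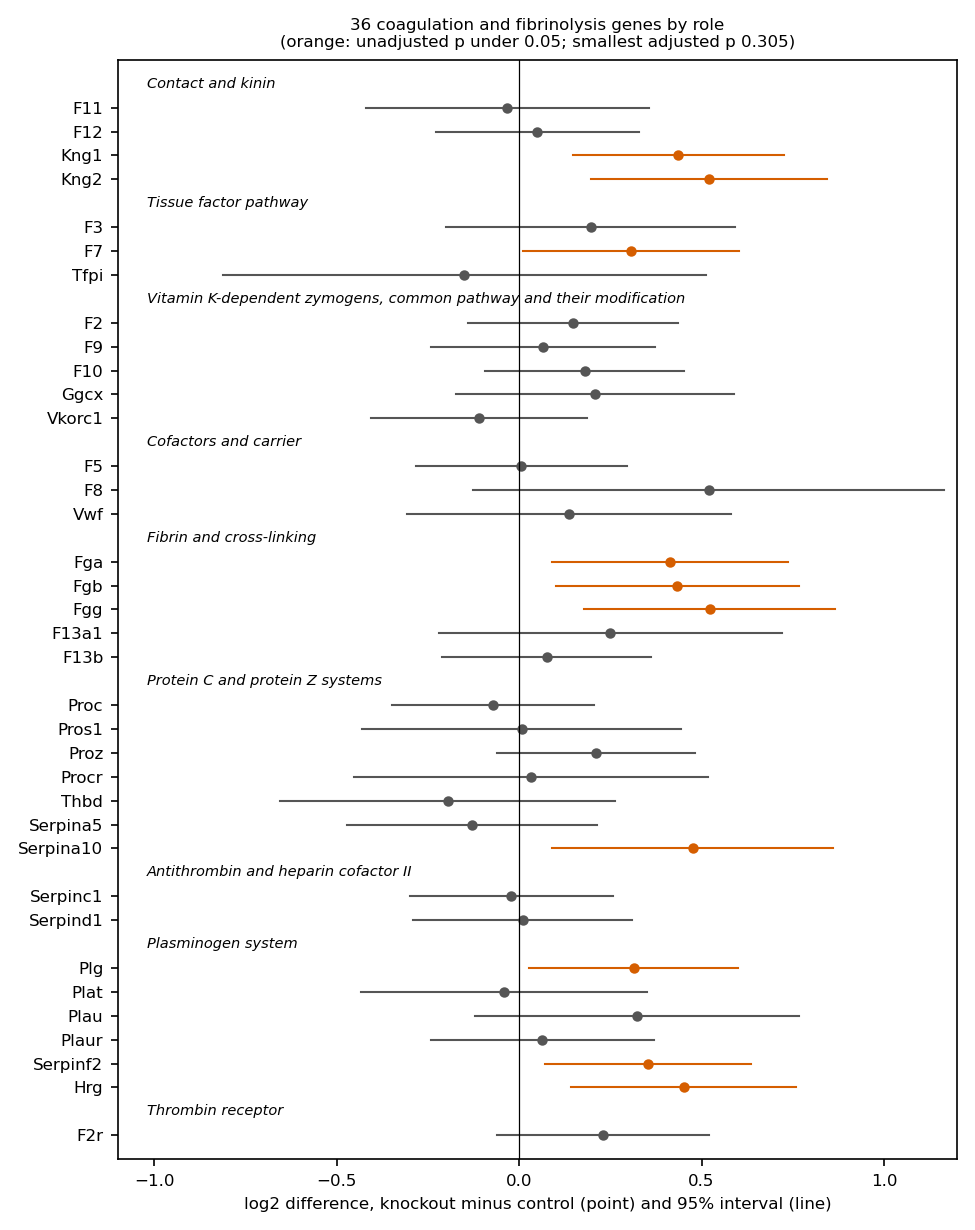
Log2 difference (knockout minus control) with its 95% interval for each of the 36 measured genes, ordered by role; orange marks the 10 genes with an unadjusted p under 0.05. The orange genes lie between 0.31 and 0.52 and are Kng1, Kng2, F7, the 3 fibrinogen chains, Serpina10, Plg, Serpinf2 and Hrg, while the antithrombin gene Serpinc1 and Serpind1 lie at -0.02 and 0.01.

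Fibrinogen is built from 3 chains, Fga (alpha), Fgb (beta) and Fgg (gamma), whose genes stand side by side. Their promoters are shown because the 3 genes lay higher together and because the sequences differ in which motifs they hold. Each run is the 250 bases before the RefSeq transcription start in mouse assembly GRCm38.p6, written 5′ to 3′ on the strand of the gene, namely chr3:83025903-83026152 on the plus strand, chr3:83049864-83050113 on the minus strand and chr3:83007474-83007723 on the plus strand. Capitals mark matches on either strand to the STAT motif TTCNNNGAA, to the interleukin-6 response element CTGGGAA and to the HNF1 core GTTAAT.
Fga promoter: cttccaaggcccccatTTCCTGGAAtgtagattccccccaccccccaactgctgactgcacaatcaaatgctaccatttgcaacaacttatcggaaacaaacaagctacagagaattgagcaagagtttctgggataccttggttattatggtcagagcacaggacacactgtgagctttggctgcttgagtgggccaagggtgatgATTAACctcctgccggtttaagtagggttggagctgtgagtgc
Fgb promoter: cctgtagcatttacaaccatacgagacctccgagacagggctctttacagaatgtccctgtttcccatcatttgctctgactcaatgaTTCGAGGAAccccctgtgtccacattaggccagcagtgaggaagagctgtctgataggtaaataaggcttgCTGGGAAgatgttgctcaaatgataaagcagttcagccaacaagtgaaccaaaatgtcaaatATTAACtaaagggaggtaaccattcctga
Fgg promoter: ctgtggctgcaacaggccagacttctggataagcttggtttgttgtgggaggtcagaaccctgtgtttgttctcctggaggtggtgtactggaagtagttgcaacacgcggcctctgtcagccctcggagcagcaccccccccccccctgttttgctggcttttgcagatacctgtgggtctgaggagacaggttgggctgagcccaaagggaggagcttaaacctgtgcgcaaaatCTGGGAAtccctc

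The Fgb window held all 3 marked motifs, with the STAT match at 162 to 154 bases before the start, the response element at 91 to 85 and the HNF1 core at 29 to 24. In the Fga window the STAT match lay at 234 to 226 and the HNF1 core at 43 to 38, with no CTGGGAA, while the Fgg window held CTGGGAA alone, at 13 to 7 bases before the start. The C/EBP motif TTNNGNAA, left in lower case, was matched in Fga at 135 to 128 and in Fgb at 206 to 199 and at 80 to 73. None of the matches in these 3 windows overlapped another. Over 32851 promoter windows of this length in the table, the share with a match was 7.02% for TTCNNNGAA, 9.1% for CTGGGAA, 6.43% for GTTAAT and 36.8% for TTNNGNAA.

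Of the 36 measured members 28 have a promoter in the table, 7 of the 10 with an unadjusted p under 0.05 and 21 of the others (the first listed start was used for genes with several). TTCNNNGAA was found in 2 of the 7 (Fga and Fgb) and in 2 of the 21 (F9 and Pros1). CTGGGAA was found in 2 of the 7 (Fgb and Fgg) and in 2 of the 21 (F9 and Tfpi). GTTAAT was found in 2 of the 7 (Fga and Fgb) and in 2 of the 21 (F13b and Proz). TTNNGNAA was found in 4 of the 7 (Fga, Fgb, Hrg and Kng2) and in 11 of the 21. In F9 the CTGGGAA match, at 82 to 76 bases before the start, lies inside the TTCNNNGAA match at 82 to 74, so these are the same letters counted under both motifs. A match is a run of letters and not a measured binding site.

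Fgg, the gamma chain, had the highest difference of the 3. It lay at 11.94, 12.40 and 12.01 in knockout replicates 1 to 3 and at 11.65, 11.59 and 11.55 in the controls. All knockout arrays were above all controls, and the difference was 0.52 (SE 0.15, 1.44-fold, limma adjusted p = 0.319). For Fgb the knockout values were 12.12, 12.57 and 12.26 and the control values 11.93, 11.84 and 11.88, again without overlap, with a difference of 0.43 (SE 0.15, adjusted p = 0.367). Fga lay at 11.20, 11.59 and 11.33 against 11.06, 10.88 and 10.94, with a difference of 0.41 (SE 0.14, adjusted p = 0.375). In each of the 3 genes knockout replicate 2 was highest and replicate 1 lowest among the knockout arrays. Without knockout replicate 2 the differences were 0.38 for Fgg, 0.31 for Fgb and 0.31 for Fga, all still positive, and the last 2 then had an unadjusted p above 0.05.

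Factor XIII cross-links fibrin, with a catalytic A subunit made by macrophages and platelets (F13a1) and a carrier B subunit made by hepatocytes (F13b). F13b lay at 8.19 to 8.27 in the knockout and 8.03 to 8.27 in the control arrays, so the groups overlapped (difference 0.08, 95% interval -0.21 to 0.36). F13a1 was dim, over the limit on 1 of 6 arrays, and its difference of 0.25 (SE 0.21) is on values too low to size.

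**Figure D2:**
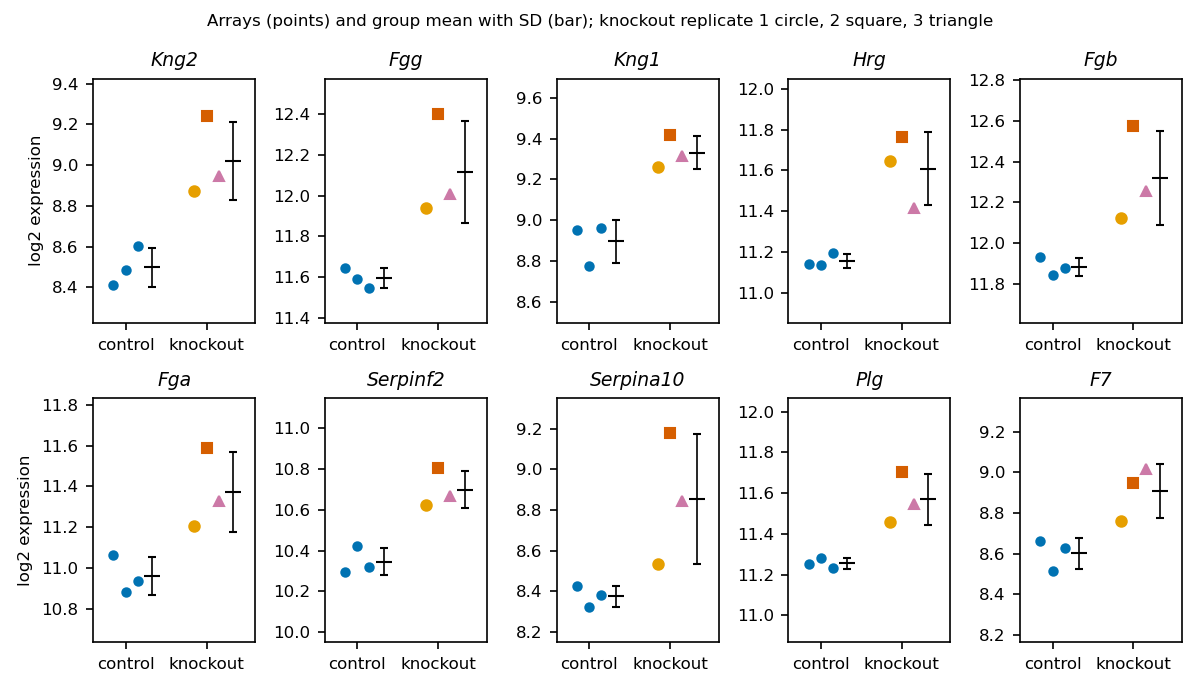
Log2 expression (vertical axis, each panel spanning the same range) on each array for the 10 genes with an unadjusted p under 0.05, controls left and knockouts right, with the group mean and SD beside them. No knockout point falls within the control range in any panel, and the square, knockout replicate 2, is highest in 9 of the 10.

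Kininogens are the precursors of bradykinin and the cofactors of the contact system, the surface-triggered start of clotting. Mice carry a pair of such genes, Kng1 and Kng2, whose near-identical sequences can share probes, so their values may not be independent. Kng2 lay at 8.87, 9.24 and 8.95 in the knockout and at 8.41, 8.49 and 8.60 in the control arrays, with no overlap and the smallest p of all members (difference 0.52, SE 0.14, 1.43-fold, limma adjusted p = 0.305). Kng1 lay at 9.26, 9.42 and 9.32 against 8.95, 8.77 and 8.96, also with no overlap (0.44, SE 0.13, adjusted p = 0.321). The 2 contact system proteases measured, F12 and F11, had groups that overlapped. F12, which starts it, lay at 9.99, 10.08 and 10.05 in the knockout and 10.04, 10.04 and 9.89 in the control arrays (0.05, 95% interval -0.23 to 0.33). F11, the protease that links it to the common cascade, lay at 7.47, 7.10 and 7.72 against controls of 7.34 to 7.54, with knockout arrays on both sides of the controls (-0.03, 95% interval -0.42 to 0.35). That interval leaves room for a 1.28-fold higher level in the knockout.

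Hrg encodes histidine-rich glycoprotein, a plasma protein that binds plasminogen, fibrinogen and heparin. Its values were 11.65, 11.77 and 11.41 in the knockout and 11.14, 11.14 and 11.20 in the control arrays, without overlap (0.45, SE 0.14, 1.37-fold, limma adjusted p = 0.329). Plg, plasminogen, the precursor of the fibrin-degrading protease plasmin, lay at 11.46, 11.70 and 11.55 against 11.25, 11.28 and 11.23 (0.31, SE 0.13, adjusted p = 0.430), and after quantile normalization its difference was 0.21, with an unadjusted p above 0.05. Serpinf2 encodes alpha-2-antiplasmin, the main inhibitor of plasmin, and lay at 10.63, 10.80 and 10.67 against 10.30, 10.42 and 10.32 (0.35, SE 0.13, adjusted p = 0.385). The protease precursor and its inhibitor thus both lay higher on every knockout array than on any control array, at 1.24-fold and 1.28-fold.

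The activators of plasminogen and the urokinase receptor are made mainly outside hepatocytes and lay near the dim limit. Plau, urokinase, lay at 4.03, 3.47 and 3.26 in knockout replicates 1 to 3 and at 3.31, 3.34 and 3.14 in the controls, so that only replicate 1 stood well apart (0.32, SE 0.20, limma adjusted p = 0.592). Plat, tissue plasminogen activator, lay at 3.51, 4.07 and 3.80 against 3.95, 3.62 and 3.94 (-0.04, SE 0.17). Plaur, the urokinase receptor, lay at 3.55, 3.54 and 3.36 against 3.52, 3.48 and 3.26 (0.06, SE 0.14). For Plat and Plaur the groups overlapped, and the sign of each difference turned when some single arrays were left out.

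Tissue factor (F3) together with factor VII (F7) starts clotting after injury, and tissue factor pathway inhibitor (Tfpi) shuts this step down. F7, made by hepatocytes, lay at 8.76, 8.95 and 9.01 in the knockout and at 8.66, 8.51 and 8.63 in the control arrays, without overlap (0.31, SE 0.13, limma adjusted p = 0.459), and it is the only member of the 10 in which replicate 3 was highest. F3 lay at 3.54 to 4.15 in the knockout and 3.54 to 3.82 in the control arrays (0.20, SE 0.18). Tfpi, at 3.63, 4.82 and 3.58 against 4.09, 4.23 and 4.15, had knockout arrays on both sides of a narrow control range (-0.15, SE 0.29, adjusted p = 0.889). Without knockout replicate 2 the Tfpi difference was -0.56, with an adjusted p of 0.242.

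The zymogens F2 (prothrombin), F9 and F10 depend on vitamin K, as do F7, Proc, Pros1 and Proz, because the carboxylase Ggcx must modify them with vitamin K that the reductase Vkorc1 recycles. Prothrombin lay at 11.12, 11.23 and 11.07 in the knockout and 11.11, 10.93 and 10.93 in the control arrays, with overlap (0.15, 95% interval -0.14 to 0.44). F10 lay at 9.40, 9.49 and 9.52 against 9.33, 9.27 and 9.28, without overlap but by a smaller amount than F7 (0.18, 95% interval -0.09 to 0.45). Ggcx (0.21) and Vkorc1 (-0.11) overlapped between the groups, and 0 of these 5 genes, F9 included, had an unadjusted p under 0.05.

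The cofactor F5, made by hepatocytes, lay at 10.29, 10.49 and 10.31 in the knockout and 10.45, 10.32 and 10.30 in the control arrays (0.01, 95% interval -0.28 to 0.29). F8, the cofactor whose lack causes haemophilia A, lay at 6.19, 7.04 and 5.70 in knockout replicates 1 to 3 and at 5.73, 5.88 and 5.78 in the controls. One knockout array was thus below all controls and another far above them, and the difference of 0.52, as high as that of Fgg, had an SE of 0.29 (limma adjusted p = 0.554). Vwf, which carries factor VIII in plasma and tethers platelets, lay at 4.19, 4.47 and 3.71 against 4.17, 3.85 and 3.94 (0.14, SE 0.20).

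Among the natural anticoagulants, Serpinc1 (antithrombin, the main inhibitor of thrombin and factor Xa) lay at 10.78, 10.91 and 10.77 in the knockout and 10.84, 10.89 and 10.79 in the control arrays, so the groups overlapped within a narrow range. Its difference was -0.02, with a 95% interval of -0.30 to 0.26, which spans ratios of 0.813 to 1.19. Serpind1 (heparin cofactor II, which inhibits thrombin) lay at 10.04, 10.08 and 10.33 against 10.16, 10.09 and 10.17 (0.01, 95% interval -0.29 to 0.31). These intervals reach neither the 1.33-fold of Fga nor the 1.44-fold of Fgg, but the difference between these genes and fibrinogen was not tested.

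Protein C (Proc) inactivates factors Va and VIIIa with its cofactor protein S (Pros1). Proc lay at 9.62, 9.69 and 9.70 in the knockout and 9.83, 9.67 and 9.72 in the control arrays (-0.07, 95% interval -0.35 to 0.21). Pros1 lay at 7.68, 7.62 and 7.36 against controls of 7.20 to 7.93, with the controls more spread than the knockouts (0.01, SE 0.19). The endothelial partners of the system, thrombomodulin (Thbd, -0.20, SE 0.20) and the protein C receptor (Procr, 0.03, SE 0.21), overlapped between the groups. For Procr the values were 4.36, 5.03 and 4.14 in the knockout against 4.56, 4.49 and 4.39.

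Serpina10, the protein Z-dependent inhibitor of factor Xa, stood apart from these. It lay at 8.54, 9.18 and 8.84 in the knockout and 8.43, 8.32 and 8.38 in the control arrays, without overlap (0.48, SE 0.17, 1.39-fold, limma adjusted p = 0.390). Replicate 1 was only just above the highest control. Its cofactor protein Z (Proz) lay at 9.33, 9.34 and 9.41 against 9.11, 9.21 and 9.13, also without overlap but by less (0.21, 95% interval -0.06 to 0.48). Serpina5, the protein C inhibitor, was dim on all 6 arrays (2.09 to 2.55). F2r, the main thrombin receptor of many cells, lay at 6.98, 6.95 and 6.79 against 6.57, 6.70 and 6.76, without overlap by a small margin (0.23, SE 0.13, adjusted p = 0.565).

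Of the measured members 9 stand in 3 runs of adjacent protein-coding genes in the GRCm38.p6 RefSeq order, a comparison made after the values were seen. In the run Fgg, Fga, Fgb the differences were 0.52, 0.41 and 0.43, and the genes next to the run, Lrat and Plrg1, lay at 0.01 (SE 0.31) and 0.07 (SE 0.12). In the run Hrg, Kng2, Kng1 the differences were 0.45, 0.52 and 0.44. Fetub, the gene of the hepatic protease inhibitor fetuin-B next to Hrg, had a similar difference of 0.52 (SE 0.13, limma adjusted p = 0.249), at 10.38, 10.42 and 10.54 in the knockout against 9.88, 9.86 and 10.04. Ahsg, the fetuin-A gene on its other side, lay at 0.09 (SE 0.12), and Eif4a2 beyond Kng1 at -0.11 (SE 0.19). The run F7, F10, Proz had 0.31, 0.18 and 0.21, with Mcf2l at 0.18 (SE 0.14) and Pcid2 at -0.16 (SE 0.14) on its sides. Atp11a, the gene beyond Mcf2l, had a larger difference than any member, at 0.97 (SE 0.16, limma adjusted p = 0.130). Cul4a, beyond Pcid2, lay at 0.13 (SE 0.13).

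**Figure D3:**
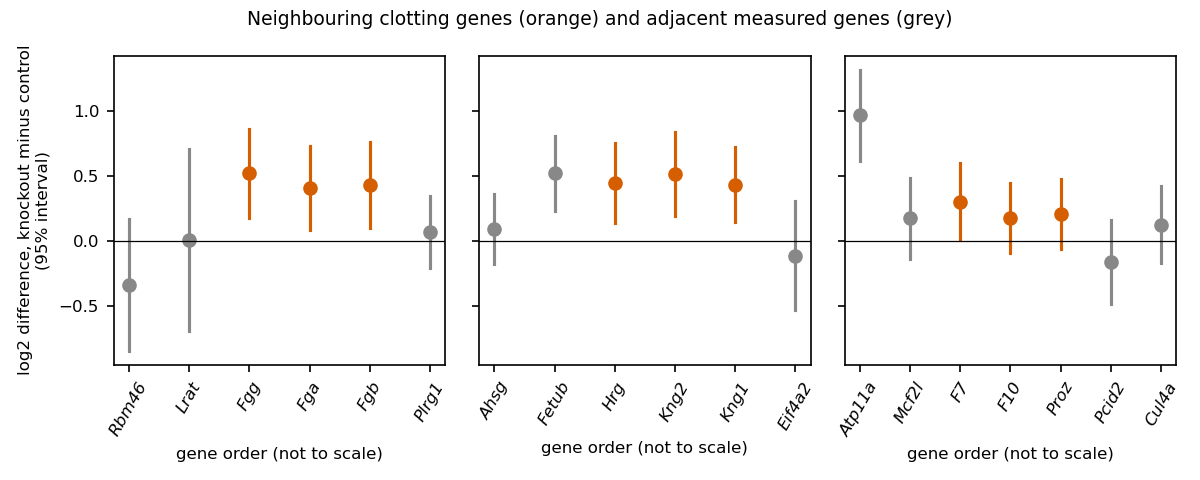
Log2 difference (knockout minus control) with its 95% interval for 3 runs of neighbouring clotting genes (orange) and the measured genes beside them (grey), in assembly order and not to scale. The 3 fibrinogen genes lie at 0.41 to 0.52 between Lrat and Plrg1 near 0, and Fetub, at 0.52, lies level with Hrg and the kininogens. Atp11a, near the F7 run, lies highest of all genes shown, at 0.97.

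The knockout arrays differed among themselves more than the controls did. The median SD of a member was 0.164 in the knockout and 0.0929 in the control group, where all genes tested had 0.193 and 0.146. Knockout replicate 2 was the highest knockout array in 21 of the 36 members (58.3%, against 33.9% of all genes) and in 9 of the 10 with an unadjusted p under 0.05. Relative to the control mean, the median of those 10 was 0.26, 0.62 and 0.39 in replicates 1, 2 and 3. All 10 lay above every control in each of the 3 knockout arrays.

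Split by the cell type that mainly makes them, a grouping from general knowledge chosen after the values were seen, the 24 hepatocyte genes had medians of 0.14, 0.20 and 0.26 over the control mean in replicates 1, 2 and 3. All 10 members with an unadjusted p under 0.05 were among them. Serpina5, dim on every array, was put in neither group. The 11 genes made mainly by endothelial cells, macrophages or other cells (F3, F8, Vwf, F13a1, Procr, Thbd, Tfpi, Plat, Plau, Plaur and F2r) had medians of 0.13, 0.25 and -0.09. In replicate 2 all of these 11 lay above the control mean, by 0.12 to 1.25, with F8 at the top (background 48.6%). In replicate 3 there were 5 of the 11 below every control (background 30.2%). None of the 11 had an unadjusted p under 0.05, and their median SD was 0.339 in the knockout against 0.139 in the control group.

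**Figure D4:**
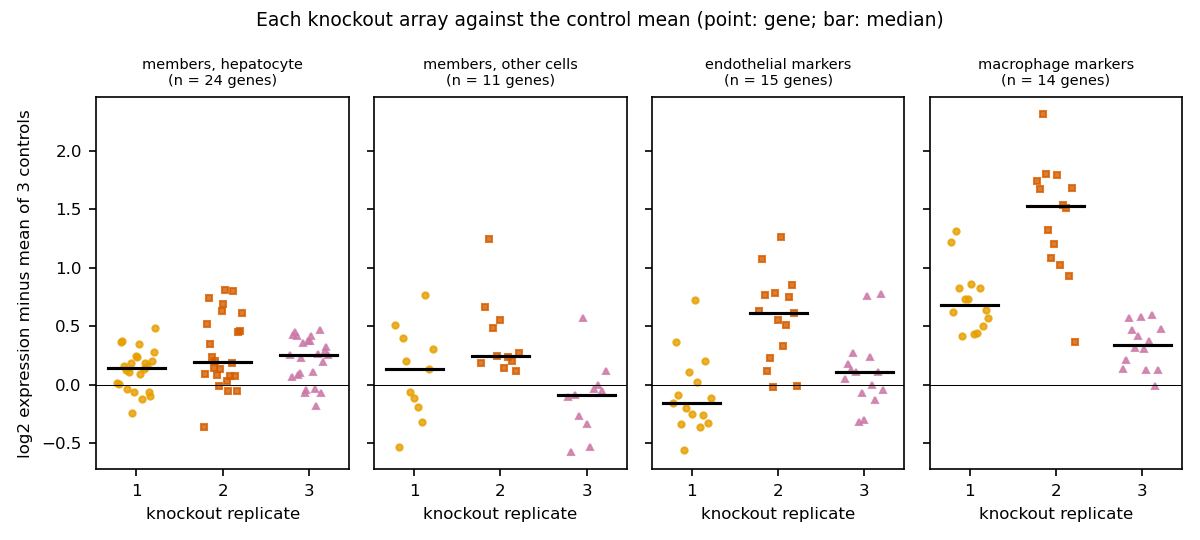
Log2 expression minus the mean of the 3 controls (vertical axis) on each knockout array, for members made mainly by hepatocytes, members made mainly by other cells, and markers of endothelial cells and of macrophages; each point is a gene and each bar the median. The markers are highest in replicate 2 (medians 0.61 and 1.53), the array in which all 11 members of other cells lie above 0.

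Markers of the liver's cell types were set beside these values. For the counts below, the backgrounds at an unadjusted p under 0.05 were 5.06% of all genes higher and 5.46% lower. Of 15 endothelial markers, all measured, 13 were highest in knockout replicate 2 among the knockout arrays, and the median over the control mean was -0.16, 0.61 and 0.11 in replicates 1, 2 and 3. Their summed signal on the linear scale was 1150 to 1870 in the knockout and 1130 to 1156 in the control group, and 2 of 15 had an unadjusted p under 0.05 (Lyve1 and Cdh5, both higher). Of 14 macrophage markers, all measured, 13 had an unadjusted p under 0.05 and all were higher in the knockout, with a summed signal of 992 to 2303 against 749 to 810 and medians of 0.68, 1.53 and 0.34 in replicates 1, 2 and 3. No marker in either list was dim on all arrays. Platelet markers, of which 10 of 13 were measured, had 0 with an unadjusted p under 0.05, and Tubb1 was dim on all arrays. Their summed signal was 139.7 to 214.6 against 125.5 to 133.6, and 6 of the 10 had a positive difference (background 50.2%). Clec1b, the brightest of them, weighs most in that sum. It lay at 5.38, 6.58 and 5.27 in the knockout and 5.22, 4.82 and 5.08 in the control arrays. Hepatocyte markers had medians of 0.00, -0.05 and -0.05 and a summed signal of 47430 to 48156 in the knockout and 48425 to 52035 in the control group, with 0 of 12 higher and 2 lower at an unadjusted p under 0.05 (Tat at -0.38 and Tdo2 at -0.33). The endothelial and macrophage markers and the members made by other cells thus had their highest median in replicate 2. The hepatocyte members lay above the control mean at the median of every knockout array, and the hepatocyte markers did not. Replicate 2 was still the highest knockout array in 15 of the 24 hepatocyte members (62.5%). It was so in 6 of the 11 members of other cells (54.5%) and in 33.9% of all genes. The part of these shifts in the members' differences was not tested.

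Among 47 other genes of haemostasis 41 were measured, and 8 lay higher and 1 lower at an unadjusted p under 0.05, against backgrounds of 5.06% and 5.46%. Fgl1, a fibrinogen-like protein secreted by hepatocytes, had the largest difference of the 8, at 11.18, 11.74 and 10.99 in the knockout and 10.22, 10.28 and 10.37 in the control arrays (1.01, SE 0.19, 2.02-fold, limma adjusted p = 0.194). The complement-binding protein gene C4bp differed by 0.55, the adhesion receptor gene Selp by 0.54 and the plasminogen receptor gene Plgrkt by 0.60. Plgrkt lay near the dim limit, at 4.25, 4.27 and 3.70 in the knockout and 3.63, 3.14 and 3.63 in the control arrays. Thbs1 (thrombospondin, over the dim limit on 1 of 6 arrays) differed by 0.44. The platelet ADP receptor gene P2ry12 differed by 0.67, with overlap between the groups, and Serping1, the inhibitor of the contact system proteases, by 0.32. Mcfd2, which with Lman1 carries factors V and VIII out of the endoplasmic reticulum, was the 1 lower gene (-0.36, SE 0.15, adjusted p = 0.432). Fgl2, at 0.53 with overlapping groups, was the other higher gene.

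Of 7 genes of interleukin-6 signalling to fibrinogen, all measured, 2 had an unadjusted p under 0.05, both higher (background 5.06%). Socs3, a feedback inhibitor that STAT3 induces, lay at 5.29, 5.14 and 4.92 in the knockout and 4.62, 4.56 and 4.67 in the control arrays (0.50, SE 0.14, limma adjusted p = 0.306). Stat3 lay at 7.70, 8.06 and 7.99 against 7.49, 7.51 and 7.42 (0.44, SE 0.14, adjusted p = 0.346). Neither gene overlapped between the groups. The rest of the list had no unadjusted p under 0.05, with Il6st (0.22), Cebpd (0.24) and Jak1 (0.06) positive and Il6ra (-0.18) and Cebpb (-0.15) negative. Of 16 liver transcription factors 13 were measured, 1 higher and 1 lower at an unadjusted p under 0.05 (backgrounds 5.06% and 5.46%), with Dbp, a clock output factor, higher (0.76, SE 0.22, adjusted p = 0.321) and Hnf4a, a nuclear receptor that drives many clotting genes, lower (-0.36, SE 0.13, adjusted p = 0.399), at 9.32, 9.24 and 9.52 against 9.74, 9.66 and 9.75.

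How far the 10 rested on single arrays was read by leaving out each array in turn. Fgg, Kng1, Kng2 and Hrg had an unadjusted p under 0.05 in each of the 6 fits, with differences of 0.38 to 0.61, 0.37 to 0.47, 0.41 to 0.59 and 0.37 to 0.55. The other 6 lost that mark in at least 1 fit, Plg and F7 in 5 of 6. Over the 6 fits the share of all genes higher at that mark was 3.54% to 6.12%. Without knockout replicate 2 the 4 named genes were the higher ones left, and Tfpi was added as lower (backgrounds of higher and lower genes in that fit 6.12% and 6.21%). Without knockout replicate 3 there were 10 again, with F8 (0.83) and Plau (0.49) in place of Plg and F7 (background of higher genes in that fit 5.97%, with 66 of all genes at an adjusted p under 0.05). In no fit did a member pass an adjusted p of 0.05. None of the 10 changed sign, which was fixed beforehand because all their knockout arrays lay above all controls.

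**Figure D5:**
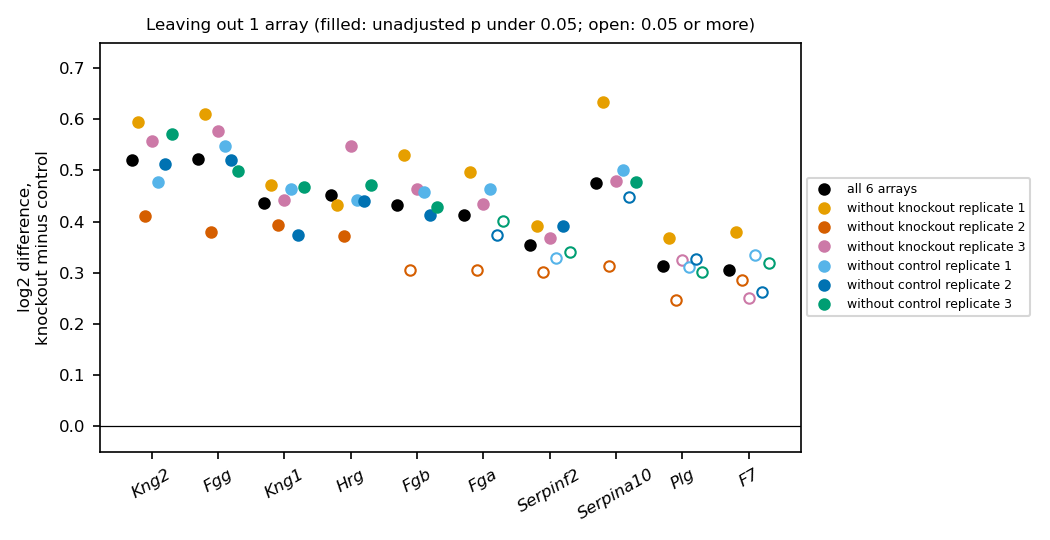
Log2 difference (knockout minus control, vertical axis) of the 10 genes with all 6 arrays and with each array left out; filled points have an unadjusted p under 0.05. All points lie between 0.25 and 0.63, and those without knockout replicate 2 are the lowest for 8 of the 10 genes. None could fall below 0, because all knockout arrays of these genes lay above all controls.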

How the data were processed

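Total liver RNA (100 ng per labelling, per the labels' protocols) was measured on Affymetrix whole-transcript arrays, 1 per sample. The authors deposited log2 expression values made with Affymetrix Expression Console 1.4.1 and RMA, per the submitters' processing notes. RMA sets probe intensities, not the summarized probe set values, to a common distribution over all arrays. The array medians of the deposited values lay between 3.11 and 3.16. A shift of most transcripts would still not show. No source used here gives a genome build. Of 41345 probe sets, 23521 had 1 gene symbol in the platform annotation, 1814 several and 16010 none; the brightest probe set per gene gave 22180 genes, unfiltered. Gene order and promoters came from RefSeq tables of GRCm38.p6.

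Differences were tested with lmFit and eBayes of limma 3.58.1 (R 4.3.3, statmod 1.5.0), 2-sided, with Benjamini-Hochberg adjustment over all genes. The fit was tested on simulated data of 3 against 3 arrays, with 50 genes shifted at each size. At an adjusted p under 0.05 it recovered 0% of genes shifted by 0.5, 54% by 1 and 94% by 2. Real differences of the size seen in the members could thus fail to pass. The number of arrays limits the precision. The members and lists were chosen with earlier results of these data known. Every member could be named; members with an unadjusted p under 0.05, the fibrinogen chains and those that changed sign or crossed 0.05 with 1 array left out were to be given by array, and up to 8 genes of the other lists and 3 of a marker list by smallest p; the neighbouring genes, the cell source grouping and Alb were chosen after their values were seen. Fits with other normalization, a dim filter, other variance models, array weights, averaged probe sets, a replicate block and each array left out were run.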

Additional observations from a re-analysis of the deposited data

How the results depend on the processing

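All 14 alternatives were run, and 0 members passed an adjusted p of 0.05 in any of them. The genes passing it over the whole table numbered 0 in the main comparison, 8 with the filter on dim probe sets, 25 with an intensity trend, 1 with the replicate block and 0 to 66 when 1 array was left out (66 without knockout replicate 3, 3 without control replicate 3). Members with an unadjusted p under 0.05, 10 in the main comparison, numbered 5 to 10 when 1 array was left out (5 without knockout replicate 2, 6 without control replicate 2 and 6 without control replicate 3), and 8 to 11 under the other 8 alternatives. The share of all genes higher at that mark was 5.06% in the main comparison and 4.73% to 5.32% under those 8. It was 6.12% without knockout replicate 2, 3.54% without control replicate 2 and 3.76% without control replicate 3. Quantile normalization left out Fga and Plg and added F2r, centring on array medians left out F7, and the intensity trend added Proz. With quantile normalization the differences were smaller for Fga (0.32), Fgb (0.37), Fgg (0.43), Hrg (0.38) and Plg (0.21), the brightest of the 10. They were larger for Kng1 (0.45), Kng2 (0.55), Serpina10 (0.50), Serpinf2 (0.36) and F7 (0.33). Same-numbered arrays did not deviate together (r of 0.01, 0.05 and 0.02 across genes), so the numbers were not taken as pairs; with the replicate block 8 members remained under 0.05, without Plg and F7. The members' median was 0.11 to 0.17 over all alternatives.

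Of 502 member values under an alternative 476 kept direction and side of an adjusted p of 0.05, which no member passed in any fit. The other 26, in 10 members, changed sign. None belonged to the 10 members with an unadjusted p under 0.05, whose sign could not turn with 1 array left out. The dim filter, intensity trend, robust variance model, averaged probe sets and replicate block left every member's difference unchanged, so no sign could turn there. With quantile normalization F11 was 0.0254 and Serpinc1 0.0028, and centred on array medians F5 was -0.0007. When 1 array was left out, F11 ranged from -0.18 to 0.13, F5 from -0.0567 to 0.0523, Plat from -0.18 to 0.10, Plaur from -0.0158 to 0.13, Procr from -0.23 to 0.22, Pros1 from -0.17 to 0.20, Serpinc1 from -0.0668 to 0.0049, Serpind1 from -0.0801 to 0.0654, Tfpi from -0.56 to 0.0648 and Vwf from -0.0367 to 0.34. F13a1 and Serpina5 did not pass the dim filter and have no value there.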
